A study of Mus musculus with 6 samples.

Results

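Keratin, claudin, tight junction, desmosome and epithelial surface genes were followed in mouse embryoid bodies, the rounded aggregates in which embryonic stem cells differentiate. The set of 40 genes was taken from a fixed list of symbols and comprises 8 keratins, 11 claudins, 7 other tight junction genes, 6 desmosome genes and 8 genes of the epithelial surface, polarity and their regulators. All 40 had at least 1 probe set named for them alone, among 18193 such genes on the array. Of these, 35 passed the filter on dim probe sets and were tested, among 13608 genes tested in all.

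The control group held 3 arrays from bodies with gelatin-coated microspheres carrying the dye CellTracker Red. The RA group held 3 arrays from bodies with gelatin-coated microspheres that delivered RA, retinoic acid, a signalling molecule made from vitamin A that binds nuclear receptors. Both groups came from the D3 embryonic stem cell line, which is 1 line, were grown in rotary culture in medium without LIF (the factor that keeps stem cells undifferentiated), and were taken at 10 days. The labels speak of triplicates but do not call them separate cultures, so the p-values measure the spread between these arrays, which may be technical. The sources used here do not give the microsphere ratio or rotary speed behind these arrays, the RA dose or any pooling of bodies. Each array measured whole bodies, so fewer cells of a type and less RNA per cell cannot be told apart.

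Epithelial cells are held together by several kinds of junction. Tight junctions seal the space between neighbours with claudins, occludin and related membrane proteins that are tied to the cytoskeleton by ZO proteins, while desmosomes join cells through the cadherins desmoglein and desmocollin, which plakoglobin, plakophilins and desmoplakin anchor to intermediate filaments. In simple epithelia those filaments are pairs of keratins, above all keratin 8 with keratin 18. In the early mouse embryo the epiblast, the visceral endoderm and the trophectoderm are epithelia, and mesoderm arises when epiblast cells leave that state.

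With RA microspheres, levels were higher for most tight junction and epithelial surface genes that passed the test, and lower for 2 keratins, 2 desmosome genes and 1 claudin. By the brightest probe set of each gene, the largest rise in the set was that of Epcam, an adhesion molecule of the epithelial surface, 2.79 times, and the largest fall that of Dsc2, the desmosomal cadherin desmocollin 2, 4.49 times. By the mean of the kept probe sets Epcam rose by 0.92 on the log2 scale, less than Prom1 at 1.14. Of 35 genes 13 rose and 5 fell at an adjusted p of 0.05 (limma, Benjamini-Hochberg over all genes tested), and 17 did not pass. Across all genes tested 14.3% rose and 15.6% fell, 30.0% in all. The median log2 fold change of the 35 genes, always RA minus control here, was 0.35, against 0.01 for all genes. A rise of at least 2-fold was seen in 3 of the 35 (3.04% of all genes) and a fall of that size in 3 (4.93% of all genes). For 22 of the 35 genes no RA array fell within the control range or the reverse, with RA above in 15 and below in 7. Over all genes 44.0% did not overlap, 21.8% with RA above and 22.2% with RA below.

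**Figure D1:**
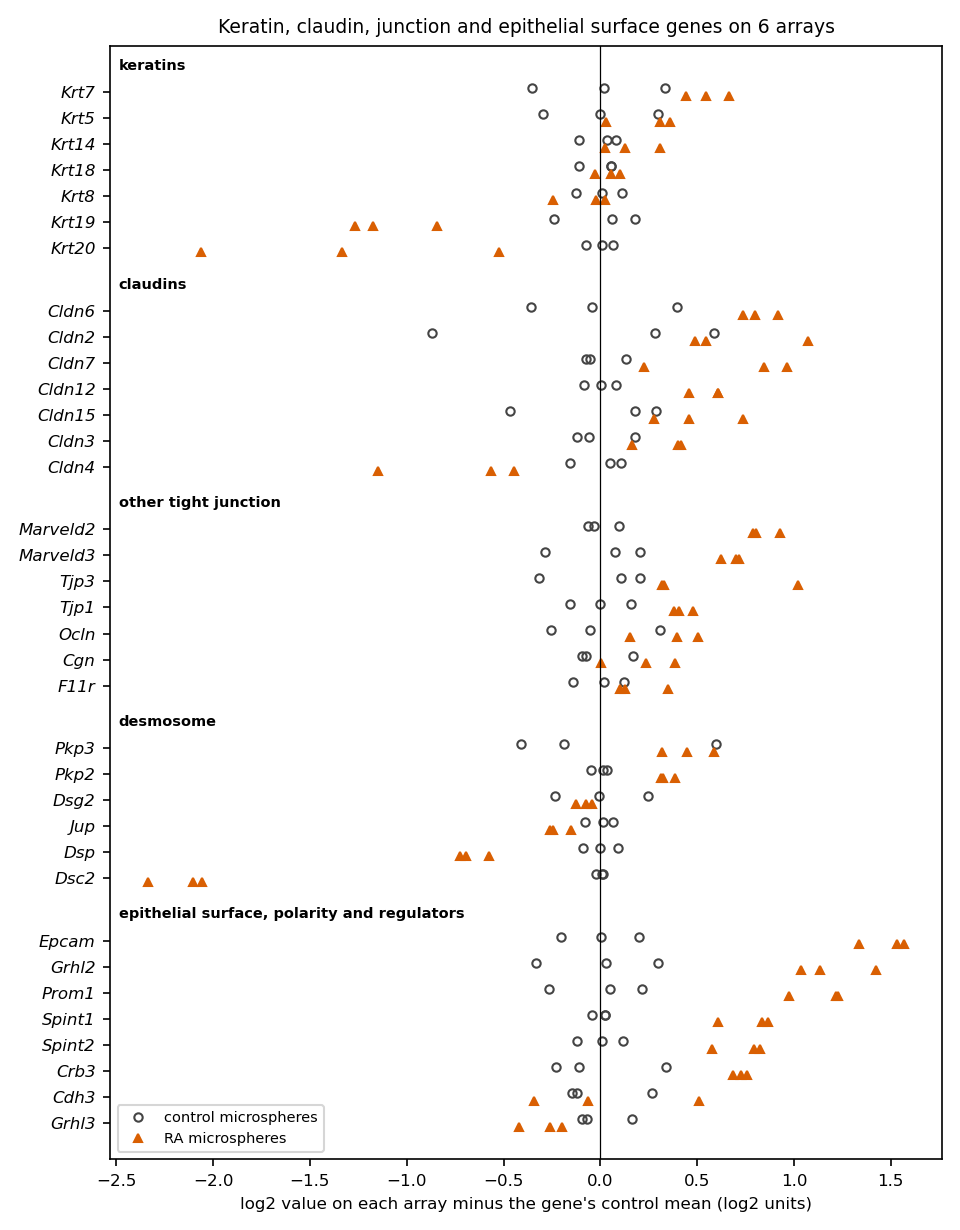
Log2 value of each tested gene on each of the 6 arrays, minus the mean of its 3 control arrays, with open circles for control and filled triangles for RA microspheres. By group mean Dsc2 lies lowest and Epcam highest, but RA array 2 of Krt20 and RA array 1 of Grhl2 reach into their ranges. The points of Krt8, Krt18 and Dsg2 overlap.

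Values below are log2(intensity + 16) after quantile normalization between arrays, and levels are not compared between genes because probe sets differ in brightness. For the same reason the summed linear signals of marker lists are weighted to their brightest probe sets and do not measure the amount of a cell type. A group mean below 5.74, the filter level, is open to background. The deposited signals were not on a common scale, with a median of 41.4 on control array 3 and of 54.8 to 65.5 on the other 5. The ratio of 3-prime to 5-prime signal, a sign of RNA integrity, was 34.0 for Gapdh on RA array 1 and 3.06 to 4.74 elsewhere. The actin ratio was 3.35 to 4.25 on control arrays and 4.35 to 7.42 on RA arrays, which did not overlap (exact two-sided permutation p = 0.1, the smallest that 3 against 3 arrays allow). Without RA array 1, 13 of the 35 genes were higher and 4 lower, and with control array 3 left out as well 12 were higher and 3 lower. Their part in the results was otherwise not tested.

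Promoter stretches of 7 genes are shown because they hold a short letter string. Its part in the differences between the groups was not tested. The string is CACCTG, the E-box that the repressors of the Snail and Zeb families are known to bind in the E-cadherin promoter, read on either strand (CAGGTG on the other). The stretches end at the base before the annotated start, run 5′ to 3′ on the gene's strand, come from RefSeq on GRCm38.p6, and carry the E-box in capitals. The first 5 belong to genes that were higher with RA, Krt8 did not pass the test, and Cldn4 was lower. Cldn7 has another annotated start, not shown, whose window holds 0 E-boxes.
Epcam, chr17:87635784-87635978, plus strand: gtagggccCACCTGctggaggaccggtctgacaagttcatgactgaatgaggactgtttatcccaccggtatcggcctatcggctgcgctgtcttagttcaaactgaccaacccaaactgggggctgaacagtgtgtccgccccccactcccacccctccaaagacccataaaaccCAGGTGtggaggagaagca
Spint2, chr7:29281978-29282067, minus strand: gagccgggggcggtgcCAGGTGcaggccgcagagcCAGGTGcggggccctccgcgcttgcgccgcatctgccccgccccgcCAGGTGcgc
Crb3, chr17:57062071-57062200, plus strand: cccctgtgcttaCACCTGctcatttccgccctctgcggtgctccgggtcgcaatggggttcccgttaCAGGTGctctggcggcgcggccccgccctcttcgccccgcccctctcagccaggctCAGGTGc
Cldn6, chr17:23679255-23679364, plus strand: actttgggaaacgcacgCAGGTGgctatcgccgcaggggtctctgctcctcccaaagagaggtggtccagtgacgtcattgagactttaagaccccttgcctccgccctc
Cldn7, chr11:69965311-69965420, plus strand: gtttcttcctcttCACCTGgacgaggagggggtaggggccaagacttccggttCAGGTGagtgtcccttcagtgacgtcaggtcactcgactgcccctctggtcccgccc
Krt8, chr15:102004343-102004467, minus strand: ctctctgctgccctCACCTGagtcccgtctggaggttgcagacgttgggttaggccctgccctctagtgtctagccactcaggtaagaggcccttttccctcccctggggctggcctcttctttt
Cldn4, chr5:134946935-134946994, minus strand: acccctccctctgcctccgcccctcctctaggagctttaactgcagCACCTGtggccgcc

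A promoter window of 300 bases, 250 before and 50 after a start, was found in the RefSeq table for 31 of the 40 genes, 8 of them with several windows. The E-box was present in at least 1 window of 19 of the 31 genes (61.3%), against 2389 of 10948 tested genes with a window (21.8%). The 31 include genes that were not tested, and among all genes with a window the E-box was in 22.6%. Counted by window, it was in 57.5% of 40 windows of the set and in 20.2% of all 32851. It was found in 7 of 10 genes that rose, 2 of 3 that fell and 10 of 18 that did not pass or were not tested, and thus among genes of each kind. The retinoid receptor hexamer AGGTCA, which can share letters with the E-box, was in 1 of 10 genes that rose, 2 of 3 that fell and 7 of 18 others. This hexamer was in 15.1% of tested genes with a window and in 18.1% of all genes with a window. Direct repeats of it with 5 or 2 bases between them were in 0 of the 31 genes and in 3 windows each of all windows. The grainyhead-like string AACNNGTT was in 2 of the 31 genes, Prom1 and Cgn. Among genes with a window it was in 4.14% of those tested and in 4.77% of all. A match is a description of letters and not a binding site.

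Keratins, the filament proteins of epithelia, had 7 tested genes, of which 0 rose and 2 fell, with a median log2 fold change of 0.04. Krt8, the type II keratin of simple epithelia, lay at 11.71, 11.85 and 11.95 on control arrays 1, 2 and 3 and at 11.81, 11.59 and 11.86 on the RA arrays. Its partner Krt18 lay at 11.25, 11.42 and 11.42 on control arrays and at 11.34, 11.42 and 11.46 with RA. The arrays of both genes overlapped, with log2 fold changes of -0.08 (95% interval -0.28 to 0.12) and 0.04 (-0.12 to 0.21). Neither gene passed, and all 3 probe sets of Krt8 lay between -0.14 and -0.07.

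Krt19, a small type I keratin of simple and ductal epithelia, lay at 9.30, 9.01 and 9.43 on control arrays and at 8.07, 8.40 and 7.98 with RA, with every RA array below every control array. Its log2 fold change was -1.09 ± 0.15 (SE, limma adjusted p = 0.000190), 2.14 times lower. Krt20, a keratin of intestinal and urothelial surface cells, lay at 7.22, 7.14 and 7.28 on control arrays and at 5.88, 5.15 and 6.69 with RA, which spread much further. It was 2.47 times lower (-1.31 ± 0.34, limma adjusted p = 0.0125), and this call was lost without RA array 1 and control array 3 together (-1.29, limma adjusted p = 0.0687). Both genes lie on chromosome 11, where 28.7% of 1116 tested genes fell and the median was -0.20. The part of that shift in their falls was not tested. Of 6 tested markers of mesothelium, a lining epithelium that expresses Krt19, 2 fell, Wt1 and Krt19 itself, and the part of such cells was not tested. Of 8 tested trophoblast markers, which include Krt7, Krt8 and Krt18, 1 rose, Plac1 (1.53 times), and 1 fell, Hand1 (3.40 times), and Tfap2c had a difference of 0.26 that did not pass.

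Krt7, found in ductal and trophoblast epithelium, lay at 6.996, 6.681 and 6.311 on control arrays and at 7.108, 7.329 and 7.207 with RA. Every RA array was above the controls, but the difference of 0.55 ± 0.22 did not pass (limma adjusted p = 0.0807), and it did without control array 1 (0.70, limma adjusted p = 0.0456). The keratins of stratified epithelium, Krt5 and Krt14, overlapped between groups at 0.23 (95% interval -0.27 to 0.73) and 0.15 (-0.30 to 0.61). Of 5 tested markers of surface ectoderm and epidermis, these 2 included, 0 rose and 1 fell, the desmosome-associated gene Perp (-1.48 ± 0.13, limma adjusted p = 8.78e-06), while Tfap2a at 0.77 did not pass. Krt23 lay below the signal filter in both groups, at 4.91 ± 0.23 and 4.79 ± 0.19 (SD, n = 3).

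Claudins, the membrane proteins that set the permeability of tight junctions, had 7 tested genes, of which 3 rose and 1 fell, with a median of 0.56. Cldn6, a claudin of embryonic epithelia, lay at 9.26, 9.58 and 10.02 on control arrays and at 10.54, 10.36 and 10.42 with RA. All RA arrays were higher, and the gene rose 1.76 times (0.82 ± 0.15, limma adjusted p = 0.00199). Cldn7, widespread in epithelia, lay at 9.43, 9.45 and 9.64 on control arrays and at 9.73, 10.35 and 10.47 with RA. Its RA array 1 came close to the highest control, and the gene rose 1.60 times (0.68 ± 0.16, limma adjusted p = 0.00807; 0.0562 and not called without a trend). It lies on chromosome 11 too. Cldn12, whose protein lacks the tail motif by which most claudins bind ZO proteins, rose 1.47 times (0.56 ± 0.09, limma adjusted p = 0.000897). Its arrays lay at 9.17, 9.26 and 9.33 in control and at 9.86, 9.71 and 9.86 with RA, and its other probe set gave 0.59.

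Cldn4, a tightening claudin of gut and duct epithelium, went the other way. It lay at 7.25, 6.99 and 7.19 on control arrays and at 5.996, 6.697 and 6.575 with RA, without overlap. The fall of 1.65 times (-0.72 ± 0.24, limma adjusted p = 0.0386) was the least stable of the set. It was lost without control array 1 (-0.65), 2 (-0.80) or 3 (-0.70) and without RA array 1 (-0.51) or 3 (-0.80). Cldn3, a close relative of Cldn4, had a difference of 0.33 ± 0.15 that did not pass (limma adjusted p = 0.133), with 0.50 and 0.65 at its other kept probe sets, and the mean of these probe sets passed (0.49, limma adjusted p = 0.0359).

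Cldn15 and Cldn2, both known as channel-forming claudins of the gut, had differences of 0.49 (95% interval -0.05 to 1.03) and 0.70 (-0.15 to 1.56), and neither passed. Cldn2 passed the filter through its RA arrays, since its control mean of 5.67 ± 0.77 (SD, n = 3) lay below the filter level. Cldn1, Cldn9, Cldn10 and Cldn11 were below the filter and not tested. Cldn10 had means of 5.32 ± 0.62 in control and 6.15 ± 0.33 with RA, Cldn11 5.11 ± 0.10 and 5.65 ± 0.32, and Cldn9 4.70 ± 0.25 and 5.29 ± 0.27 (SD, n = 3). All 3 had every RA array above the controls at these probe sets, with all group means but that of Cldn10 with RA at a level open to background. Fitted without the filter none of them passed (limma adjusted p = 0.115 to 0.178). A further probe set of Cldn9 gave -0.19, with overlapping arrays. Cldn1 lay at 5.44 ± 0.71 and 5.52 ± 0.68.

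The other tight junction genes had 7 tested members, of which 3 rose and 0 fell, with a median of 0.42. Marveld2 encodes tricellulin, which seals the points where 3 cells meet. It lay at 7.34, 7.37 and 7.50 on control arrays and at 8.33, 8.21 and 8.19 with RA, groups that are tight and well apart. It rose 1.79 times (0.84 ± 0.14, limma adjusted p = 0.000726). Marveld3, of the same family, lay at 7.05, 6.69 and 7.18 in control and at 7.68, 7.60 and 7.69 with RA and rose 1.60 times (0.68 ± 0.18, limma adjusted p = 0.0140). Without control array 2, its lowest value, the call was lost narrowly (0.54, limma adjusted p = 0.0530). Occludin (Ocln), the best-known member of that family, had a difference of 0.35 (95% interval -0.03 to 0.74) with overlapping arrays, and did not pass.

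Tjp1 encodes ZO-1, the scaffold beneath tight junctions, and lay at 10.17, 10.01 and 9.85 on control arrays and at 10.42, 10.39 and 10.49 with RA. It rose 1.34 times (0.42 ± 0.09, limma adjusted p = 0.00535), a small change with no overlap. Tjp3, which encodes ZO-3, lay at 6.578, 7.001 and 7.098 in control and at 7.91, 7.21 and 7.22 with RA. RA array 1 stood above the other RA arrays, and the difference of 0.56 ± 0.24 did not pass (limma adjusted p = 0.100). It passed without scaling between arrays (0.77, limma adjusted p = 0.0449), where the median of all genes was 0.26. The adhesion molecule gene F11r (JAM-A) and the adaptor gene Cgn (cingulin) had differences of 0.19 (95% interval -0.05 to 0.44) and 0.21 (-0.14 to 0.56), with overlapping arrays.

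Desmosome genes had 6 tested members, of which 1 rose and 2 fell, with a median of -0.15. Dsc2 lay at 9.98, 9.99 and 9.95 on control arrays and at 7.64, 7.87 and 7.92 with RA. In deposited intensity these were 1054, 999.4 and 610.3 against 186, 245 and 249.9, and control array 3 had the lowest median of the 6 arrays. The distance between the groups was many times the spread within either, and the fall was 4.49 times (-2.17 ± 0.11, limma adjusted p = 9.30e-08). Its other probe set fell as well (-1.42 ± 0.18, limma adjusted p over probe sets = 0.000274). Its partner cadherin Dsg2, desmoglein 2, did not follow, with values of 9.07, 8.82 and 8.59 in control and 8.76, 8.78 and 8.70 with RA. Its difference was -0.08 (95% interval -0.37 to 0.20), and its 5 kept probe sets lay between -0.13 and 0.03.

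Dsp encodes desmoplakin, the link to the filaments, and lay at 10.55, 10.36 and 10.45 on control arrays and at 9.88, 9.73 and 9.76 with RA. It fell 1.59 times (-0.66 ± 0.09, limma adjusted p = 0.000149), with -0.33 at its other kept probe set. Without scaling between arrays, a setting under which the all-gene median was 0.26 in place of 0.01, the difference was -0.30 and did not pass. Jup, plakoglobin, had every RA array below the controls but a difference of -0.22 ± 0.10 that did not pass (limma adjusted p = 0.144). It lies on chromosome 11, whose median was -0.20. Pkp2, plakophilin 2, lay at 9.16, 9.14 and 9.07 in control and at 9.51, 9.45 and 9.43 with RA. It rose 1.27 times (0.34 ± 0.09, limma adjusted p = 0.0143). That call was lost without scaling (limma adjusted p = 0.104), with median centring (0.0734), without a trend (0.0513) and without RA array 1 and control array 3 (0.0605). Pkp3, plakophilin 3, had a difference of 0.45 (95% interval -0.23 to 1.13) and did not pass.

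Dsc2, Dsg2, Dsp, Pkp2 and Jup are also the desmosome genes of heart muscle. Of 7 tested heart muscle markers 6 fell, with Myl7, Actc1 and Myh6 at -5.05, -6.11 and -5.59 on the log2 scale. The summed linear signal of the 7 was 10200 to 15390 on control arrays and 407.8 to 512.3 with RA. Myh6 and Tnnt2, both lower, had RA means of 5.48 and 5.34, below the filter level. Among the 5 shared desmosome genes 2 fell, 1 rose and 2 did not pass. The part of heart muscle cells in these differences was not tested.

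Genes of the epithelial surface, polarity and their regulators had 8 tested members, of which 6 rose and 0 fell, with a median of 0.75. Epcam lay at 8.82, 8.42 and 8.62 on control arrays and at 9.96, 10.19 and 10.15 with RA (1.48 ± 0.12, limma adjusted p = 3.81e-06). Its second probe set overlapped between groups at 0.36 ± 0.19 (limma adjusted p over probe sets = 0.216), so the size of the rise rests on the brighter probe set. Spint1 and Spint2 encode membrane inhibitors of serine proteases such as matriptase, and rose 1.70 and 1.66 times. Spint1 lay at 8.64, 8.57 and 8.64 in control and at 9.23, 9.48 and 9.45 with RA (0.77 ± 0.11, limma adjusted p = 0.000231). Spint2 lay at 9.31, 9.19 and 9.42 and at 10.10, 9.89 and 10.13 (0.73 ± 0.10, limma adjusted p = 0.000250), with 0.29 at its second probe set. The promoter of Spint2 printed above holds 3 E-boxes within 90 bases, and that of Spint1 holds 0 in its window.

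Grhl2, a grainyhead-like transcription factor that activates Cdh1 and claudin genes in epithelia, lay at 7.10, 7.73 and 7.46 on control arrays and at 8.85, 8.56 and 8.46 with RA. It rose 2.30 times (1.20 ± 0.18, limma adjusted p = 0.000383), while its other kept probe set gave 0.23 ± 0.20 and did not pass. Grhl3, its relative of the surface ectoderm, had every RA array below the controls, but its difference of -0.29 ± 0.17 did not pass (limma adjusted p = 0.238). Prom1, prominin 1, a protein of apical membrane protrusions, lay at 8.513, 8.198 and 8.682 in control and at 9.69, 9.44 and 9.68 with RA. It rose 2.20 times (1.14 ± 0.135, limma adjusted p = 7.54e-05) with well separated groups.

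Crb3, an apical polarity protein of the Crumbs complex, lay at 7.24, 7.81 and 7.36 on control arrays and at 8.231, 8.198 and 8.155 with RA and rose 1.65 times (0.72 ± 0.17, limma adjusted p = 0.00663). Of its 3 kept probe sets 2 rose, and the third gave 0.36 and did not pass. The gene was not called where probe sets ending in _x_at, _s_at or _a_at were left out (limma adjusted p = 0.317). Cdh3, P-cadherin, lay near the filter level in both groups, at 5.89 ± 0.23 and 5.92 ± 0.43 (SD, n = 3), and its arrays overlapped. A further probe set of Cdh3, below the filter and not tested, gave -0.50, with every RA array below the controls. Epcam and Cldn6 are also listed among 8 markers of definitive endoderm and gut, all of which rose, Sox17 by 2.12 on the log2 scale. All 8 epiblast markers rose too, Pou5f1 and Dnmt3b by 2.43 and 3.89, with a summed linear signal of 2641 to 3030 on control arrays and 15970 to 16560 with RA. Zic2 among them had a control mean of 5.57, below the filter level. Of 10 visceral endoderm markers 6 rose and 4 fell, with Ttr and Afp at -1.21 and -2.69 and Dab2 at 1.75. Sox17 and Foxa2, which rose, are counted both in this list and in that of definitive endoderm and gut. Amn, which rose, had a control mean of 5.64, below the filter level. The summed signal of the 10 was 24390 to 26530 on control arrays and 12350 to 13930 with RA. Ttr and Afp, both lower with RA, had by far the highest control means, 13.47 and 13.38, and so dominate that sum. Of 9 parietal endoderm markers 6 rose and 1 fell, with Col4a1 and Lamb1 at 0.62 and 0.52 and Sparc at -0.63, and their sum was 11590 to 12560 on control arrays and 13660 to 14420 with RA. Of 8 neural progenitor markers 5 rose and 1 fell, with Fabp7 and Sox2 at 3.51 and 1.497 and Cdh2 at -0.44, and their sum was 2240 to 2596 and 4600 to 5185. Sox1, which rose, had a control mean of 4.87, below the filter level. Of 6 blood markers 5 fell, with the embryonic globin genes Hbb-y, Hbb-bh1 and Hba-x at -6.47, -4.34 and -4.86. The sum of the 6 was 16570 to 19260 and 463.6 to 484.3. Ptprc, which fell, had an RA mean of 5.23, below the filter level. Which of these cells carried the surface genes was not tested.

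**Figure D2:**
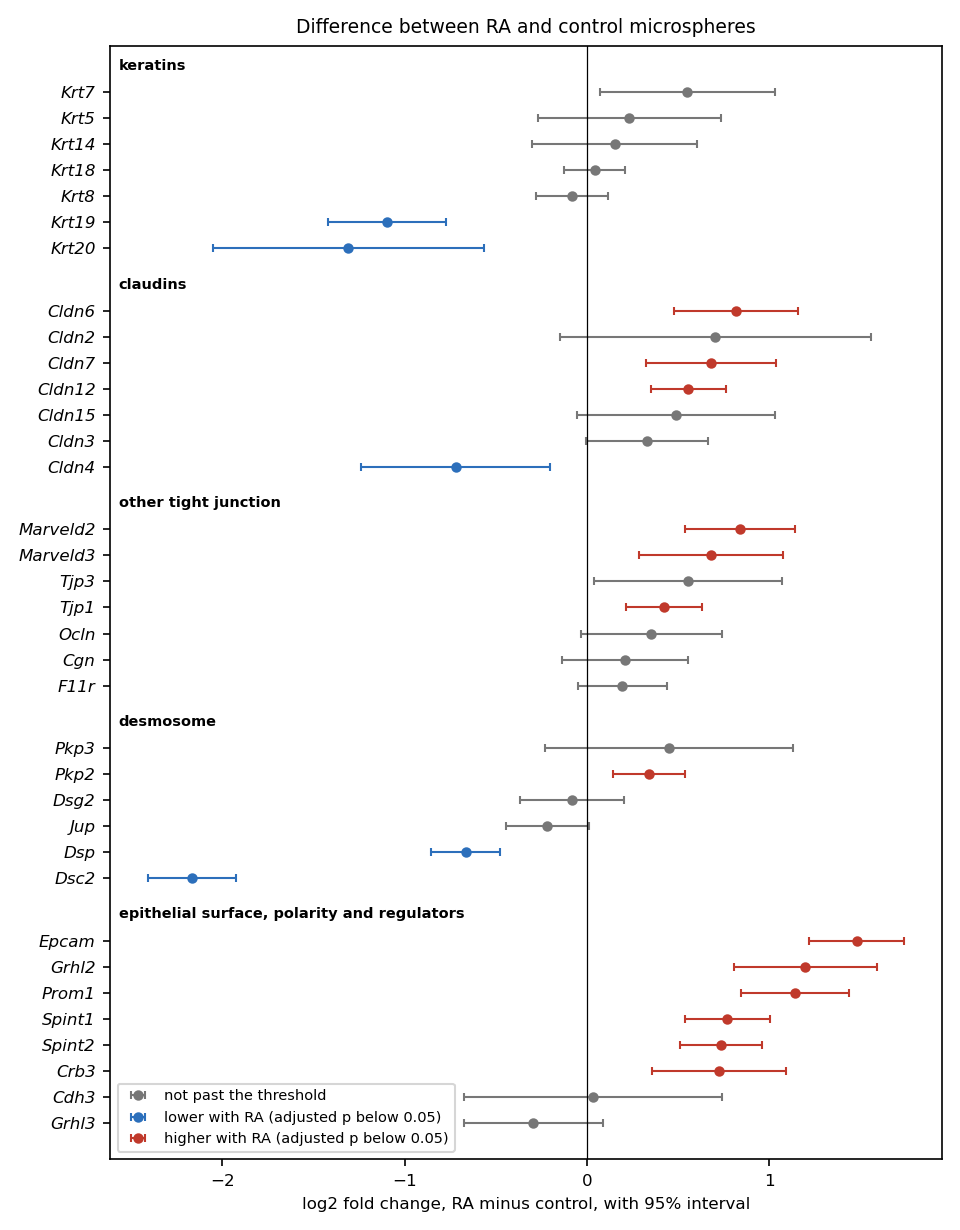
Log2 fold change of each tested gene, RA minus control, with the 95% interval of the limma fit, in red for genes that rose, blue for genes that fell and grey for genes that did not pass. Falls are seen among keratins, desmosome genes and 1 claudin, and the intervals of Krt8 and Krt18 span 0.

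Several genes of the set are read by more than 1 kept probe set, which allows a check within the same arrays. Of 12 such genes, Cldn12, Pkp2, Dsp and Dsc2 passed at every kept probe set in the same direction. For Epcam, Spint2, Grhl2 and Crb3 at least 1 kept probe set did not pass, and its difference had the same sign in each case. In all, 16 probe sets of the set rose and 7 fell in the fit over 27022 kept probe sets, of which 22.4% passed. For Krt8, Cldn3, Ocln and Dsg2, 0 kept probe sets passed.

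**Figure D3:**
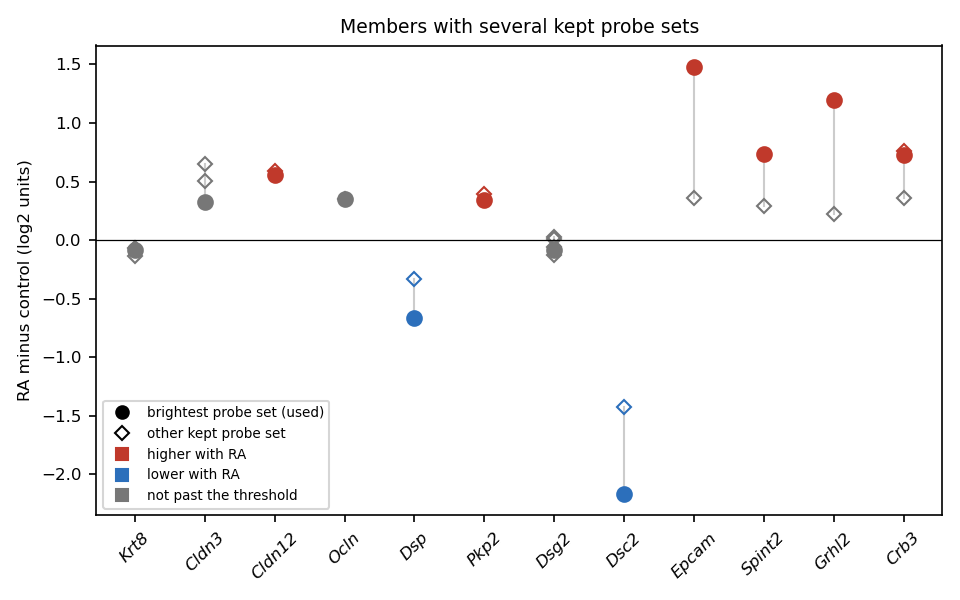
Difference between RA and control means (log2 units) at each kept probe set of the 12 genes with more than 1, with a filled circle for the brightest probe set and open diamonds for the others. The probe sets of Epcam run from 0.36 to 1.48 and those of Dsc2 from -2.17 to -1.42.

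Other genes of the epithelial program were followed in lists that share only Cldn7 with the set. In the adherens junction list, E-cadherin (Cdh1) rose 2.96 times, from 10.75, 10.74 and 10.62 on control arrays to 12.25, 12.29 and 12.26 with RA (1.56 ± 0.07, limma adjusted p = 3.17e-08). Cdh1 is also counted among the epiblast markers above. Nectin1, an adhesion molecule that helps start adherens junctions, rose 2.92 times from a control mean below the filter level, while Cdh11 and Cdh5, cadherins of mesenchyme and endothelium, were 2.55 and 2.03 times lower. In that list 5 of 16 tested genes rose and 3 fell, with a median of 0.14. The catenin gene Ctnna1 had a difference of 0.03. Among 18 polarity genes 3 rose and 0 fell, with a median of 0.12, and the largest rise was that of Slc9a3r1, an ezrin-binding scaffold of apical membranes, 2.51 times.

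Of 14 further tight junction genes 5 rose and 3 fell, led by Amot, a junctional Hippo pathway protein, 4.17 times higher. Of 5 further claudins 0 rose and 1 fell. That was Cldn5, the claudin of endothelium, 10.2 times lower with an RA mean below the filter level, and 5 of 6 tested endothelial markers, itself included, fell, with Kdr and Emcn at -1.78 and -1.19. Tek, also lower, had an RA mean of 5.45, below that level too. Of 6 further desmosome and plakin genes 1 rose, Pkp4 (2.15 times), and 1 fell, Perp (2.79 times).

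Among 19 epithelial regulators and membrane proteases 8 rose, Cldn7 included, and 0 fell, with a median of 0.50. Ovol2, among the 8, passed the filter through its RA arrays, since its control mean of 5.06 lay below the filter level. Esrp1, an epithelial splicing factor, was 2.56 times higher, Prss8 and Tmprss2, membrane serine proteases, 2.42 and 2.05 times, and Ap1m2, an adaptor for basolateral sorting, 2.41 times (limma adjusted p at most 0.000454). St14, the gene of the protease matriptase that Spint1 and Spint2 restrain, had a difference of 0.11 ± 0.16 and did not pass.

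Of 10 genes known to repress epithelial genes or to mark mesenchyme 0 rose and 7 fell, with a median log2 fold change of -1.16. Snai2 was 8.70 times lower, from 10.60, 10.57 and 10.62 on control arrays to 6.48, 7.97 and 7.98 with RA, where RA array 1 was the lowest. Twist2, Prrx1 and Zeb1 were 5.62, 2.91 and 2.36 times lower (limma adjusted p at most 5.37e-05). Snai1, Snai3 and Zeb2 did not pass, at -0.24 ± 0.20, -0.25 ± 0.26 and -0.20 ± 0.23. Of 8 mesenchyme markers, 7 fell, with Vim, Col3a1 and Pdgfra at -1.68, -2.38 and -1.21. The other, Thy1, rose from a control mean of 5.47, below the filter level. The summed linear signal of the 8 was 23110 to 26010 on control arrays and 5807 to 6284 with RA. The part of mesenchymal cells in these falls was not tested.

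**Figure D4:**
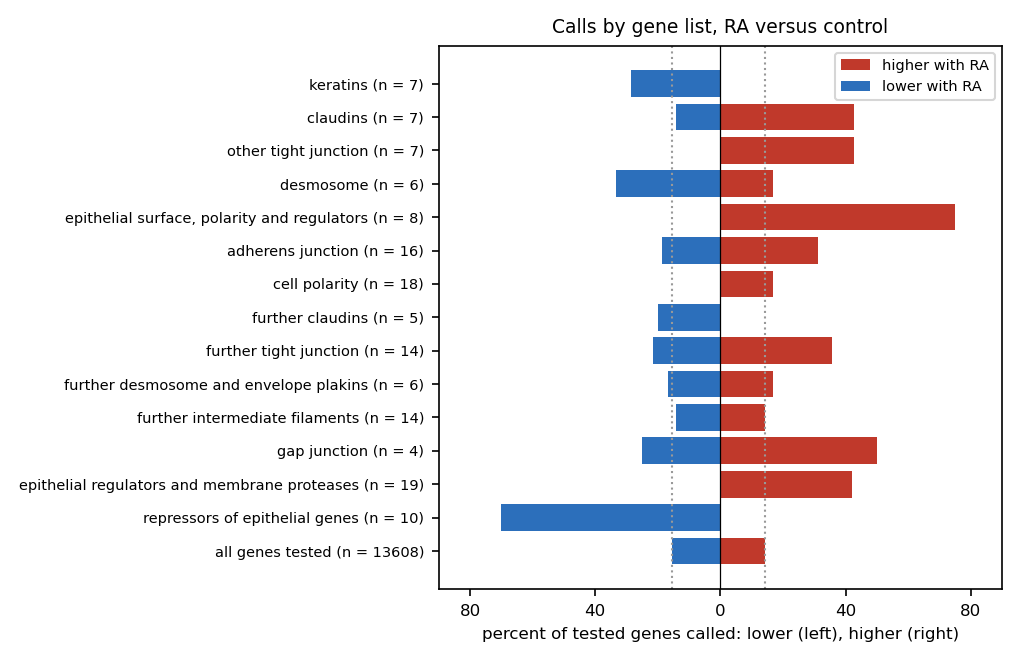
Percent of tested genes that rose (right, red) and fell (left, blue) in each gene list, with the number of genes tested, and in all genes at the bottom, whose shares are drawn as dotted lines. Keratins, further claudins and the repressor list lie wholly on the left. The other tight junction, epithelial surface, cell polarity and regulator lists lie wholly on the right.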

How the data were processed

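Biotin-labelled cRNA from total RNA was hybridized to Affymetrix arrays, and the signals came from GCOS with default settings, per the labels. The deposited values are a linear intensity per probe set for 6 arrays and 45101 probe sets. The sources used here do not give the GCOS version, its scaling target or detection calls.

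After 64 control probe sets were left out, log2(intensity + 16) was quantile normalized between arrays. Probe sets whose mean lay above the 40th percentile were kept (27022). Genes were named from the array's annotation table (34945 probe sets with 1 symbol, 932 with several, 9160 with none), through the gene identifier of the GRCm38.p6 RefSeq table where it matched (34741), and were represented by their brightest kept probe set. Groups and replicate numbers came from the sample titles. The test was that of limma 3.58.1 under R 4.3.3 (lmFit, eBayes with trend, two-sided, no covariates, Benjamini-Hochberg threshold 0.05). The pseudocount understates the change of dim genes. The genes to name were all 40 of the set, the list genes that passed with at least 2-fold change (at most 4 per list, by p, and at most 3 in 1 direction where both occur) and, of each marker list, the 3 of highest mean level. Named after their values were seen were Snai1, Snai3, Zeb2, Plac1, Hand1, Thy1, St14, Ctnna1, Wt1, Gja1, Gjc1, Nefl, Nefm, Lmna, Ovol2, Zic2, Amn, Sox1, Ptprc, Tnnt2, Tek and Foxa2. Members and lists were chosen with earlier results of these data known. Of the procedure, only the limma fit was tested on simulated data. Scaling, the signal filter and the choice of probe set were not part of that test. The number of arrays limits the precision.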

Additional observations from a re-analysis of the deposited data

How the results depend on the processing

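Of the 18 calls, 11 were kept under every one of 18 alternatives in which the gene was measured: Krt19, Cldn6, Cldn12, Marveld2, Tjp1, Dsc2, Epcam, Spint1, Spint2, Grhl2 and Prom1. Of these, Tjp1, Epcam, Spint2 and Prom1 were not measured where probe sets ending in _x_at, _s_at or _a_at were left out. Cldn4 was lost under 9, Pkp2 under 4, and Krt20, Cldn7, Marveld3, Dsp and Crb3 under 1 each, and no called gene changed direction. Without scaling, 651 genes were lower in all, 3 of the set, 4 of its probe sets and 11 of the further lists, and 72.9% of all calls were higher against 47.8% (of the set's calls 81.2% against 72.2%). Probe sets of the set that were lower numbered 4 with median centring, 4 without a trend and 4 to 6 without 1 array. Without probe sets ending in _x_at, _s_at or _a_at, 27 genes of the set were measured, 8 of them higher, 61.5% of its calls. Without RA array 1 and control array 3 together 3 were lower. With the replicate number as a block, 13 were higher and 4 lower (1775 and 1949 of all genes), and Cldn4 was lost. Same-numbered arrays deviated with correlations of -0.09 to -0.01, in which no deviation in common was seen. The labels do not say whether the numbers pair the samples, and these few correlations cannot settle it. For leave-one-out fits the probe sets stayed those chosen on 6 arrays. Genes near the filter level are limited by signal over background.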

Other observations

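Gap junction genes, whose connexins join the cytoplasm of neighbouring cells, had 4 tested members, of which 2 rose and 1 fell. Gjb2, an epithelial connexin, lay at 6.17, 6.44 and 6.24 on control arrays and at 7.69, 7.53 and 7.89 with RA and was 2.68 times higher (1.42 ± 0.19, SE, limma adjusted p = 0.000201). Gja1, the most widespread connexin, rose 1.49 times, and Gjc1, known from heart and vessels, fell 1.41 times.

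Of 14 further intermediate filament genes 2 rose and 2 fell. The mesenchymal filament gene Vim was 3.20 times lower, from 12.87, 12.98 and 12.78 on control arrays to 11.19, 11.15 and 11.26 with RA. The neurofilament genes Nefl and Nefm rose 1.95 and 1.91 times, and Lmna, a lamin, fell 1.57 times. The 7 further keratins that were tested did not pass.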
